A study of Mus musculus with 8 samples.

Results

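The proteasome genes of the left ventricle (LV) were followed in RNA sequencing libraries of 8 mouse hearts. Members were the genes of the count table whose symbols are built from Psm, one letter from a to g, and a number, with a CPM (counts relative to the total of the library) that reached 1 in 2 or more libraries. By name 48 genes matched, and 47 of them passed, among 13542 genes passing in a table of 46040. The one left out was *Psmb11*, the catalytic subunit of the thymus, with 0 counts in every library, which allows at most 3 counts, or 0.185 to 0.262 CPM depending on the library. Just inside the limit was *Psma8*, the alpha subunit of the testis proteasome, with 5 to 23 counts and a CPM of at least 1 in control-tagged replicates 2 (1.86) and 4 (1.13) and in no other library. The other 46 members had a mean normalized CPM, scaled to library sizes corrected by the TMM method, between 6.69 and 373.

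All 8 mice were males of a C57BL/6 strain, 5 to 7 months old, that had received angiotensin II (angII) at 0.1 mg/kg/h and were alive on day 14. One genotype was littermate controls and the other was VEGFR-1 TK-/- mice, whose *Flt1* gene lacks the part for the tyrosine kinase domain, a deletion not limited to a cell type. No mouse without angII was sequenced among these libraries, so the comparison is of 2 genotypes under the same load. The labels disagree on which is which: the genotype tag and library name of a sample give the genotype that its title denies. The tags were followed here, the groups are called control-tagged and TK-tagged (n = 4 each), and each difference below is TK-tagged relative to control-tagged and changes sign if the titles are correct. *Flt1*, which was altered in the mutant, had 67.4, 68.4, 56.9 and 84.3 normalized CPM in the control-tagged and 144, 149, 169.6 and 168 in the TK-tagged replicates 1 to 4 (log2 fold change 1.19, SE 0.12, FDR, the p adjusted over all genes tested, = 0.00808, edgeR quasi-likelihood test). The count over the whole gene does not tell the alleles apart and so does not settle the labels.

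Library totals ran from 11449137 to 16239670 counts, and members took 0.473% to 0.505% of them. Control-tagged replicates 3, the deepest library, and 2 stood apart across the transcriptome. Replicate 3 held the highest value of 22.1% and the lowest value of 23.2% of all genes tested, and replicate 2 the highest of 19.5% and the lowest of 18.8%. The library names mention cardiomyocytes, whereas the labels and the methods describe LV tissue. The muscle cell marker *Myh6* was at 22322.5 to 37065.4 normalized CPM, all 9 leukocyte, 5 endothelial and 5 fibroblast markers and 3 of 4 atrial markers passed the filter, and the atrial marker *Sln*, the skeletal muscle genes *Myh4* and *Myh1* and the fat cell markers *Adipoq*, *Plin1*, *Cidec* and *Lep* each had at most 5 counts over all libraries together. In such tissue RNA, fewer cells of a type and less RNA per cell cannot be told apart. The labels name no litter or batch, and the p-values measure the spread between these mice.

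The proteasome is the protease that degrades proteins tagged with ubiquitin. Its 20S core is a stack of alpha and beta rings, with the proteolytic sites on the beta subunits encoded by *Psmb6*, *Psmb7* and *Psmb5*. In immune cells, and in other cells exposed to interferon, newly made cores take *Psmb9*, *Psmb10* and *Psmb8* in their place and form the immunoproteasome, which helps to cut peptides for MHC class I. The 19S particle binds ubiquitin chains (non-ATPase subunits) and unfolds substrates (ATPase subunits), and PA28 (*Psme1*, *Psme2* or *Psme3*) and PA200 (*Psme4*) are other caps of the core. In the heart the proteasome clears damaged and oxidised proteins and takes part in the turnover of sarcomere proteins under load. When proteasome activity falls short, the transcription factor NRF1 (*Nfe2l1*) raises many subunit genes together through antioxidant response elements.

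Promoters of *Psmb5*, *Psmb6* and *Psmb10* are shown because the constitutive and the immune catalytic subunits varied differently between hearts, as described below. This contrast rested in large part on TK-tagged replicate 1. Without that LV, the immune subunits followed each other no more closely than they followed the constitutive core. The windows are RefSeq's, on GRCm38.p6, and were restricted to bases before the transcription start that lie in no annotated exon. They are chr14:54618023-54618245 on the minus strand (*Psmb5*), chr11:70525107-70525356 on the plus strand (*Psmb6*) and chr8:105938445-105938642 on the minus strand (*Psmb10*). Capitals mark matches to the core of the antioxidant response element (TGACNNNGC), the CCAAT box (CCAAT) or the core of the interferon response element (GAAANNGAA), each searched on both strands.
Psmb5: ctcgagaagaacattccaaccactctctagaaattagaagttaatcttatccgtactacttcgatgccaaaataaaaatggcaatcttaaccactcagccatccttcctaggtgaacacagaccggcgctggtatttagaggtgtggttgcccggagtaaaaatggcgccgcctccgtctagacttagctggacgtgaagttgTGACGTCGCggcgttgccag
Psmb6: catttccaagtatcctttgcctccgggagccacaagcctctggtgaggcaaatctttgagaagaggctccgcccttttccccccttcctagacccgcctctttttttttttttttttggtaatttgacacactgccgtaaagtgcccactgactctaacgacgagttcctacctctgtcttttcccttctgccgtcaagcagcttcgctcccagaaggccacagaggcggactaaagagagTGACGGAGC
Psmb10: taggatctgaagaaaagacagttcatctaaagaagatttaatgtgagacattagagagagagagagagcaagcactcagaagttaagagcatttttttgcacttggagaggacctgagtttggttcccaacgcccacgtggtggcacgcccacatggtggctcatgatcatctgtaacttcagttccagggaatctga
The *Psmb5* window held TGACGTCGC, which begins 47 bases before the start, and the *Psmb6* window held TGACGGAGC, 9 bases before it. The *Psmb10* window held none of the 3 motifs. The windows of *Psmb8* and *Psmb9* lie wholly inside annotated exons and are not printed. The starts of *Psmb9* and of *Tap1*, a transporter of peptides for MHC class I, lie 226 bases apart on opposite strands. Of the 47 members, 39 had a window. Within the 250 bases before the start, the antioxidant response element core was found in 5 of the 39 (12.8%) and in 11.5% of all 27025 genes with a window, the CCAAT box in 13 (33.3%) and 37.5%, and the interferon response element core in 3 (7.69%) and 8.18%. A match is a description of the letters.

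The RNA levels of the subunits differed by role. Levels are compared as normalized CPM per kilobase of the exons of coding transcripts, averaged over the 8 LVs (mean ± SD, n = 8), since a longer RNA yields more reads. Among the 14 constitutive subunits of the core, all but *Psma8*, the median was 107. The levels spread 6.30-fold from *Psma3* (31.5) to *Psmb6* (199 ± 31.8), although each has the same number of copies in the core. The lengths used, 2846 bases for *Psma3* and 798 for *Psmb6*, weigh on this spread. Without scaling by length, the mean normalized CPM of these 14 ran from 61.6 (*Psma5*) to 172 (*Psmb7*), with *Psma3* at 89.8. The 17 subunits of the 19S particle had a median of 69.2 and spread 4.79-fold, from *Psmd11* (30.4 ± 2.03), a scaffold of its lid, to the ATPase *Psmc3* (146 ± 25.0).

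**Figure D1:**
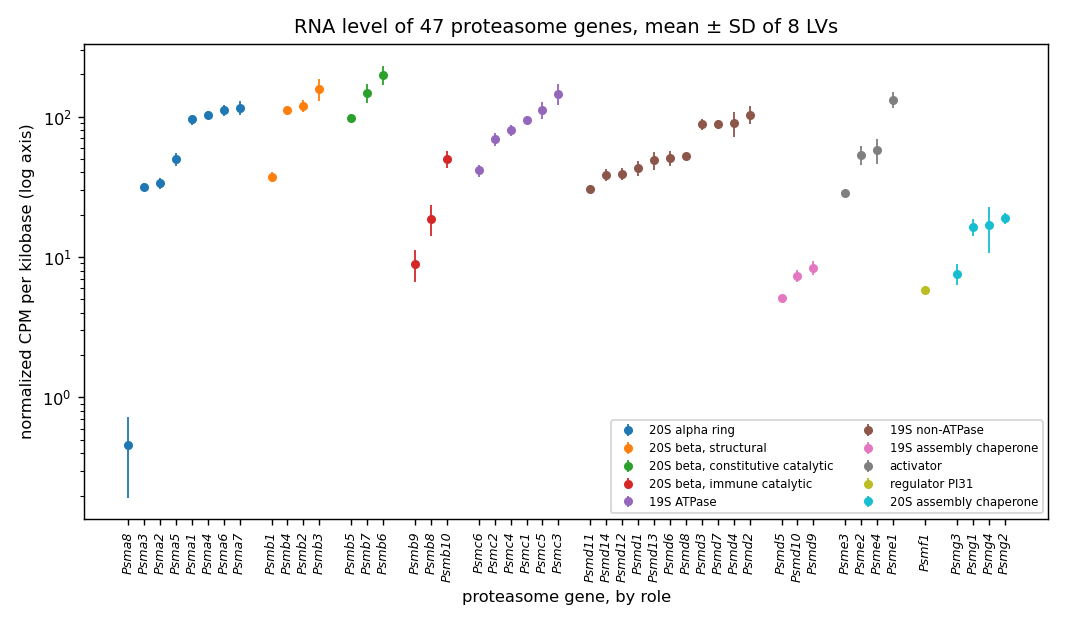
Normalized CPM per kilobase (log axis) of 47 proteasome genes, grouped by role and sorted within it; points are means and bars SDs over 8 LVs. Constitutive core and 19S subunits other than *Psma8* lie between 30.4 and 199, the immune subunits between 8.93 and 49.7, and assembly chaperones between 5.13 and 18.8.

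The immune subunits were less abundant than the subunits they replace, in the order *Psmb10* (49.7 ± 6.66), *Psmb8* (18.7 ± 4.59) and *Psmb9* (8.93 ± 2.26), against 148 ± 22.8 (*Psmb7*), 98.3 ± 6.57 (*Psmb5*) and 199 ± 31.8 (*Psmb6*). Helpers of assembly that are not part of the finished particle were low: the 19S chaperones *Psmd5* (5.13 ± 0.263), *Psmd10* (7.34) and *Psmd9* (8.41 ± 0.954), and the 20S chaperones *Psmg3* (7.57 ± 1.27), *Psmg1* (16.4 ± 2.32), *Psmg4* (16.8 ± 6.07) and *Psmg2* (18.8 ± 1.74). *Psmf1*, which encodes the regulator PI31, was at 5.86 ± 0.377. Of the caps, *Psme1* was at 132 ± 16.7, its partner in PA28 *Psme2* at 53.3 ± 8.16, *Psme4* at 57.5 ± 11.5 and the nuclear *Psme3* at 28.8 ± 1.3. The order within a role depends on the exons counted as length, and with all exons of each gene *Psma6* instead of *Psmb6* was the highest of the core and the spread was 4.51-fold in the core and 8.09-fold in the 19S particle. A level at which an exon is shared with a gene on the other strand is uncertain, because the strand setting of the counting is not given in the sources used here. Shared with a gene of that strand that had 84 or more counts in all are 405 bases of *Psmb7* (*Nek6*), 342 of *Psmd13* (*Sirt3*), 252 of *Psmd1* (*Htr2b*), 215 of *Psmc3* (*Slc39a13*), 212 of *Psmb9* (*Tap1*) and 14 of *Psme1* (*Emc9*), and the partners of other shared bases had at most 9 counts. *Psme2b*, a near-copy of *Psme2*, had 1 to 10 counts per library.

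Between the genotypes, no proteasome gene passed the test. Of the 47 members, 0 were called by edgeR's quasi-likelihood test (FDR under 0.1 and a fold of 1.5 or more in either direction), where 0.00738% of all genes, *Flt1* alone, was called. The likelihood ratio test of the study's methods and DESeq2 also called 0 members, at 0.391% and 0.236% of all genes. An unadjusted p under 0.05 was reached by 1, 1 and 2 members in these 3 tests. The lowest FDR of a member was 0.464 by edgeR's quasi-likelihood test, 0.292 by the likelihood ratio test and 0.278 by DESeq2. Higher in the TK-tagged LVs were 28 members and lower were 19, with a median log2 fold change of 0.028 against −0.0012 over all genes, and the median absolute log2 fold change was 0.0713 against 0.128. For 43 members the 95% interval of the log2 fold change lay inside a 1.5-fold difference either way, and it reached beyond for *Psma8* (−1.55 to 0.70), *Psmg4* (−0.89 to 0.34), *Psmb8* (−0.66 to 0.22) and *Psmg3* (−0.13 to 0.61). The split of directions turned on control-tagged replicate 3: without it, 43 of 47 members were higher in the TK-tagged LVs (median 0.0788). Without control-tagged replicate 2 it was 22 of 46 (median −0.0149), and without TK-tagged replicate 3 it was 22 of 47 (median −0.00646).

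**Figure D2:**
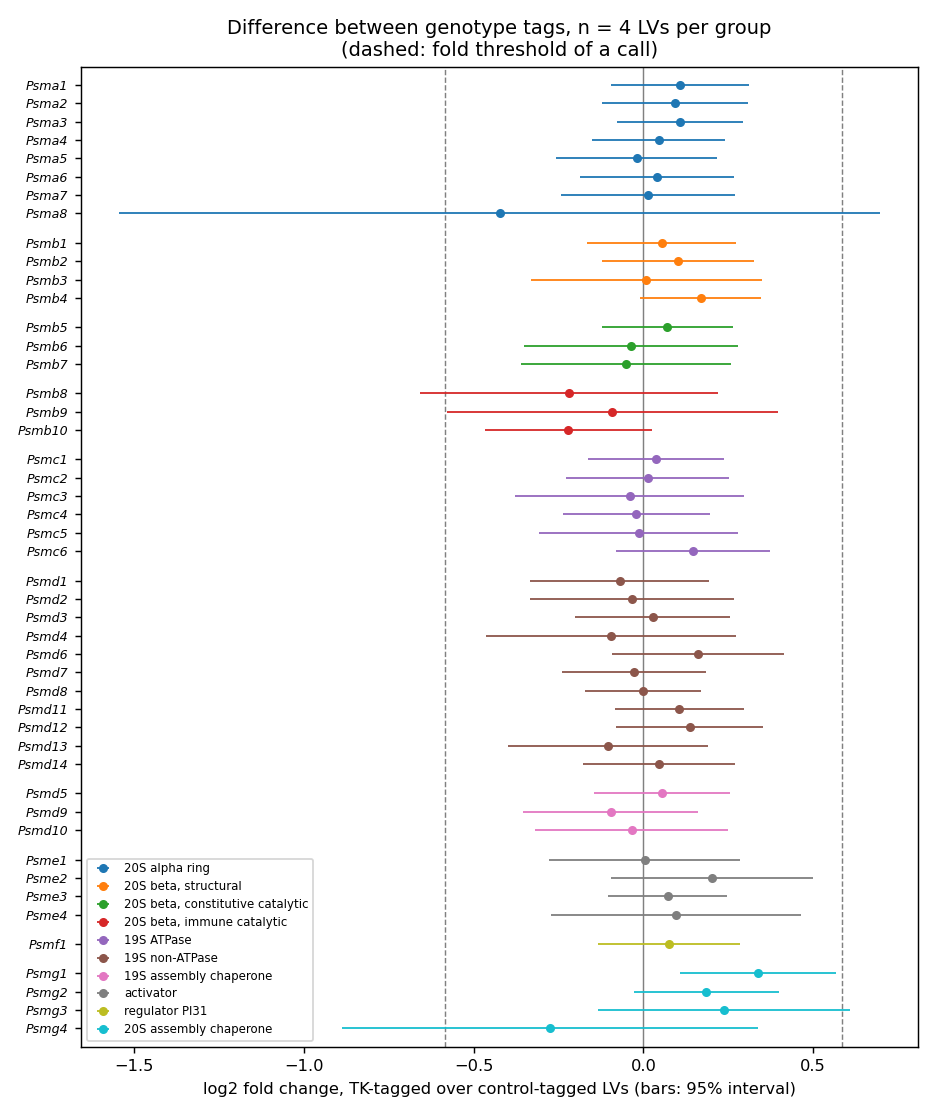
Log2 fold change of each of the 47 members between genotype tags (horizontal axis, TK-tagged over control-tagged, 4 LVs per group), with 95% intervals from edgeR's quasi-likelihood fit; dashed lines mark a 1.5-fold difference. Only the interval of *Psmg1* (0.11 to 0.57) leaves out 0, and that of *Psma8* is the widest.

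One member, *Psmg1*, had an unadjusted p under 0.05, where 8.96% of all genes did. *Psmg1* (ENSMUSG00000022913, GRCm38 chromosome 16, 95979933 to 95990960, minus strand) encodes a chaperone that pairs with the product of *Psmg2* to guide assembly of the alpha ring. Its normalized CPM was 16.8, 14.7, 14.5 and 14.6 in control-tagged replicates 1 to 4 and 18.9, 21.04, 18.9 and 17.9 in TK-tagged replicates 1 to 4. Every TK-tagged LV was above every control-tagged LV. The means were 15.2 ± 1.12 and 19.2 ± 1.3 (SD, n = 4 each), a log2 fold change of 0.34 (SE 0.10, unadjusted p = 0.00749, FDR = 0.464, edgeR quasi-likelihood test). *Psmg2* was at 23.9, 24.1, 19.8 and 24.1 in the control-tagged and 26.4, 25.0, 27.4 and 25.6 in the TK-tagged LVs (log2 fold change 0.19, SE 0.10, FDR = 0.609). *Psmb4*, a structural subunit of the beta ring, was at 133, 115, 124 and 122 in the control-tagged and 136, 138, 143 and 139 in the TK-tagged LVs (log2 fold change 0.17, SE 0.08, FDR = 0.58). These 3 were the members whose groups did not overlap, where 4.98% of all genes did not overlap either. Each had an exact permutation p of 0.0286, the smallest that 4 against 4 libraries allow (2-sided), and an FDR that misses the threshold.

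The other 2 chaperones of core assembly pointed opposite ways. *Psmg3* was at 7.64, 6.46, 5.25 and 5.20 in the control-tagged and 6.99, 7.37, 8.37 and 6.22 in the TK-tagged LVs (log2 fold change 0.24, SE 0.17, FDR = 0.709). *Psmg4* was at 10.4, 6.32, 16.3 and 7.68 in the control-tagged and 9.34, 6.13, 11.0 and 7.25 in the TK-tagged LVs (log2 fold change −0.28, SE 0.28, FDR = 0.8). Both pairs of groups overlapped, and the highest *Psmg4* value was that of control-tagged replicate 3, without which its log2 fold change was 0.05. *Psma8* had the lowest log2 fold change of all members, −0.42 (SE 0.51, FDR = 0.84), at 0.449, 1.67, 0.336 and 1.12 in the control-tagged and 0.813, 0.888, 0.395 and 0.558 in the TK-tagged LVs. At so few counts no difference was detectable.

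The catalytic subunits of the immunoproteasome had lower means in the TK-tagged LVs, within the spread of the hearts. *Psmb10* (ENSMUSG00000031897, chromosome 8, 105935735 to 105938444), which replaces *Psmb7*, was at 78.6, 65.8, 66.2 and 70.2 in the control-tagged and 72.6, 52.2, 57.6 and 58.4 in the TK-tagged LVs. TK-tagged replicate 1 lay within the control-tagged range and the other TK-tagged LVs below it (log2 fold change −0.22, SE 0.11, FDR = 0.597, edgeR quasi-likelihood test). *Psmb8* (ENSMUSG00000024338, chromosome 17, 34197721 to 34201454), which replaces *Psmb5*, was at 38.5, 30.1, 40.1 and 22.5 in the control-tagged and 37.7, 21.1, 28.4 and 25.3 in the TK-tagged LVs. These values overlapped widely (log2 fold change −0.22, SE 0.20, FDR = 0.769). *Psmb9* (ENSMUSG00000096727, chromosome 17, 34181987 to 34187764), which replaces *Psmb6*, was at 13.8, 13.6, 14.5 and 7.92 in the control-tagged and 16.9, 9.77, 10.2 and 9.96 in the TK-tagged LVs. One LV in each group broke rank, control-tagged replicate 4 on the low side and TK-tagged replicate 1 on the high side (log2 fold change −0.09, SE 0.22, FDR = 0.931). The size of these differences turned on single LVs. Without one library, the log2 fold change of *Psmb9* ran from −0.011 (without control-tagged replicate 3) to −0.32 (without TK-tagged replicate 1). That of *Psmb8* ran from −0.11 (without TK-tagged replicate 2 or control-tagged replicate 3) to −0.39 (without TK-tagged replicate 1), and that of *Psmb10* from −0.16 to −0.32 (without TK-tagged replicates 2 and 1).

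The constitutive counterparts showed another order of the hearts, a contrast that rested in large part on TK-tagged replicate 1, as described below. *Psmb5* was at 94.0, 80.9, 89.1 and 80.8 in the control-tagged and 85.9, 96.7, 92.8 and 86.8 in the TK-tagged LVs (log2 fold change 0.07, SE 0.09, FDR = 0.845). *Psmb6* was at 159.7, 128, 208 and 147 in the control-tagged and 139, 157, 182 and 149 in the TK-tagged LVs (log2 fold change −0.04, SE 0.14, FDR = 0.959). *Psmb7* was at 180.3, 146, 221 and 152 in the control-tagged and 141, 180.5, 188 and 166 in the TK-tagged LVs (log2 fold change −0.05, SE 0.14, FDR = 0.937). Control-tagged replicate 3 was the highest LV for *Psmb6* and *Psmb7*, without which their log2 fold changes were 0.11 and 0.08.

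**Figure D3:**
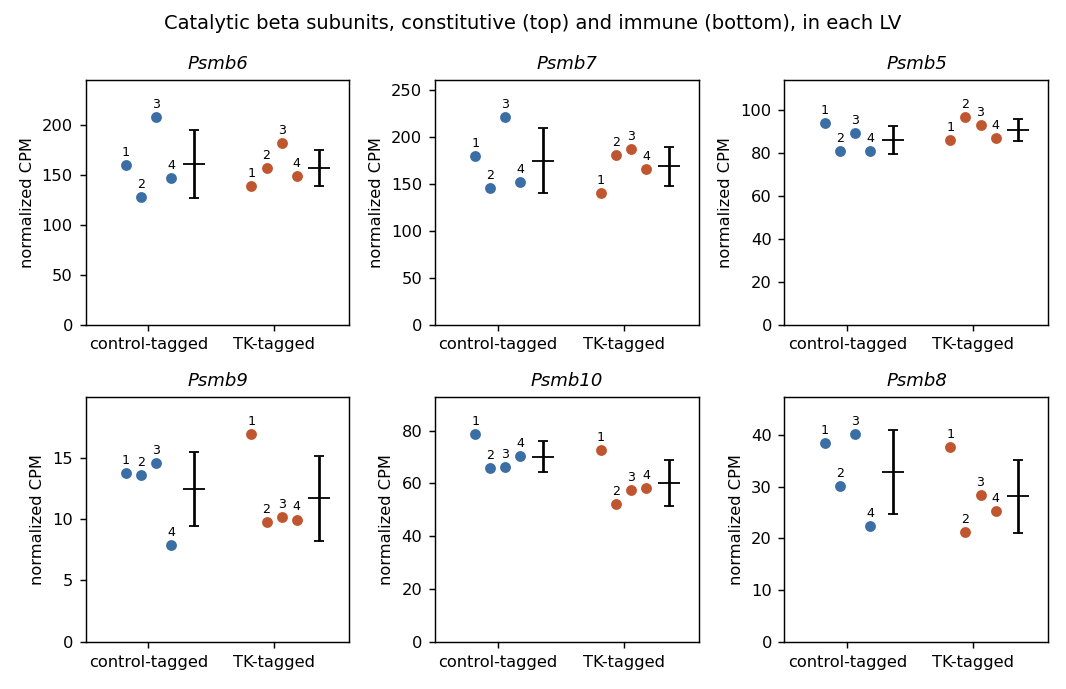
Normalized CPM (vertical axes from 0) of the constitutive catalytic subunits *Psmb6*, *Psmb7* and *Psmb5* (top) above the immune subunit that replaces each (bottom); points are LVs numbered by replicate and black bars mean ± SD of 4. The groups overlap for all 6 genes, and TK-tagged replicate 1 is the highest TK-tagged LV of each immune gene and the lowest of each constitutive one.

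As a share of the per-kilobase levels of all 6 catalytic subunits, the immune subunits made up 16.9%, 17.3%, 13.5% and 15.3% in control-tagged replicates 1 to 4 and 18.9%, 11.5%, 12.3% and 13.7% in TK-tagged replicates 1 to 4. The group means were 15.8% ± 1.73 and 14.1% ± 3.30 (SD, n = 4 each), so the groups overlapped and TK-tagged replicate 1 had the highest share of all. By site, *Psmb10* was 20.9% to 29.1% of *Psmb10* and *Psmb7* together in the control-tagged and 20.4% to 31.3% in the TK-tagged LVs. *Psmb8* was 13.3% to 19.9% and 10.8% to 19.5% of *Psmb8* and *Psmb5*, and *Psmb9* was 3.09% to 5.88% and 3.21% to 6.68% of *Psmb9* and *Psmb6*. These are shares of RNA and not of assembled particles.

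Genes that work beside the immunoproteasome in antigen presentation did not pass the test either. Of 12 listed genes, all passed the filter, 0 were called and 1 had an unadjusted p under 0.05, where 8.96% of all genes did: *Irf9*, a subunit of the interferon-activated factor ISGF3, at 36.6, 42.4, 39.1 and 38.0 in the control-tagged and 39.0, 33.4, 31.8 and 27.8 in the TK-tagged LVs (log2 fold change −0.24, SE 0.11, FDR = 0.556, edgeR quasi-likelihood test). *Tap1* was at 25.3, 26.3, 21.7 and 17.8 in the control-tagged and 39.6, 19.1, 25.1 and 26.5 in the TK-tagged LVs, *Tap2*, its partner in the transporter, had a log2 fold change of 0.07 (SE 0.10), and *B2m*, the light chain of MHC class I, one of −0.06 (SE 0.18). TK-tagged replicate 1 had the highest value of all 8 LVs for *Tap1*, *Tap2* and *B2m*, as for *Psmb9*. The summed level of 9 leukocyte markers was 549 to 723 normalized CPM in the control-tagged and 468 to 795 in the TK-tagged LVs. *Cd74* made up 456 of the 795 in TK-tagged replicate 1, and without this gene, a choice made after seeing the data, the sum was 336 to 446 and 227 to 339, highest in control-tagged replicate 2. An unadjusted p under 0.05, as 8.96% of all genes had, was reached by 2 of the 9 leukocyte markers (*Csf1r* and *Itgam*), 3 of 5 endothelial and 2 of 5 smooth muscle and pericyte markers (*Kcnj8* and *Rgs5*), all lower in the TK-tagged LVs, and by 2 of 6 cardiomyocyte markers (*Tnni3* and *Pln*), both higher. The endothelial sum was 1229 to 1559 and 1122 to 1240, and the cardiomyocyte sum 41154 to 58466 and 50391 to 66198. The part of these cell types in the levels of the immune subunits was not tested.

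Over the 8 LVs, the relations of *Psmb8* and *Psmb9* with an MHC class I gene were the 2 of 30 that passed after adjustment, each by one of 2 measures. Between *Psmb8* and *H2-K1*, an MHC class I heavy chain, Pearson's r was 0.93 (exact permutation p = 0.00131, adjusted p = 0.0394) and Spearman's rho 0.905 (exact p = 0.00456, adjusted p = 0.0543), and r was 0.943 without the 2 LVs farthest from the median. Between *Psmb9* and *H2-K1*, r was 0.848 (exact p = 0.00781, adjusted p = 0.0679), rho 0.952 (exact p = 0.00114, adjusted p = 0.0342) and r without the 2 farthest LVs 0.84. With group means taken out, r was 0.930 and 0.848. The 30 relations were those of *Psmb5* to *Psmb10* with *H2-K1*, *B2m*, *Tap1*, *Cd74* and *Ptprc*, over which p was adjusted by Benjamini-Hochberg, and the genes were taken with their values known. In the 15 relations of the immune subunits r ran from 0.33 to 0.93, and with group means taken out from 0.63 to 0.93. The lowest r over the 8 LVs was that of *Psmb10* with *Tap1* (adjusted p = 0.593 by exact permutation), and none of *Psmb10* passed. With group means taken out, r of this pair was 0.77, a value without a test. Without the 2 farthest LVs, r fell from 0.58 to 0.28 for *Psmb8* with *Tap1* and from 0.72 to 0.16 for *Psmb9* with *Tap1*. For *Psmb10* it fell from 0.67 to 0.049 with *Ptprc*, from 0.68 to 0.36 with *B2m* and from 0.68 to 0.37 with *Cd74*. These relations rest largely on those LVs. In the 15 relations of *Psmb5*, *Psmb6* and *Psmb7*, r ran from −0.58 to 0.05 and rho from −0.71 to 0.00. With group means taken out, r of these ran from −0.53 to 0.04. Their adjusted p-values by exact permutation were at least 0.272 for r and 0.173 for rho. Without the 2 farthest LVs, r of these 15 ran from −0.60 (*Psmb5* with *Tap1*) to 0.62 (*Psmb5* with *H2-K1*). With *H2-K1* it was then 0.62, 0.40 and 0.54 for *Psmb5*, *Psmb6* and *Psmb7*. For *Psmb8*, *Psmb9* and *Psmb10* it was 0.94, 0.84 and 0.59. *Psmb9* and *Tap1* share exon bases, and reads of one may be counted for the other.

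None of the caps of the core passed the test. *Psme1* was at 163, 111, 167 and 146 in the control-tagged and 144, 151, 162 and 132 in the TK-tagged LVs (log2 fold change 0.00, SE 0.13, FDR = 0.996). *Psme2* was at 58.5, 48.9, 35.9 and 50.5 in the control-tagged and 57.4, 54.1, 61.6 and 49.6 in the TK-tagged LVs (log2 fold change 0.20, SE 0.14, FDR = 0.692), a difference of 0.079 when control-tagged replicate 3 is left out. The products of these genes form a ring together, yet control-tagged replicate 3 was the highest LV for *Psme1* and the lowest for *Psme2*. *Psme3* was at 77.5, 77.8, 68.6 and 75.2 in the control-tagged and 77.4, 77.9, 79.6 and 79.2 in the TK-tagged LVs (log2 fold change 0.07, SE 0.08, FDR = 0.822). *Psme4* was at 375, 350.0, 318 and 399 in the control-tagged and 295, 537, 379 and 331 in the TK-tagged LVs (log2 fold change 0.10, SE 0.17, FDR = 0.893). TK-tagged replicate 2 set its direction, which without that LV was −0.11. *Psmf1* was at 24.6, 20.8, 23.3 and 22.5 in the control-tagged and 22.8, 23.0, 25.5 and 24.7 in the TK-tagged LVs (log2 fold change 0.07, SE 0.10, FDR = 0.847).

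The 19S subunits had log2 fold changes from −0.10 to 0.16, with 3 of 6 ATPases and 5 of 11 non-ATPases higher in the TK-tagged LVs. *Psmc3* was at 291, 232, 401 and 283 in the control-tagged and 271, 288, 340.0 and 275 in the TK-tagged LVs, and the ATPase *Psmc6* at 92.4, 88.0, 72.0 and 98.4 and 91.4, 102, 96.5 and 97.7. *Psmd2*, a scaffold of the base, was at 302, 259, 390.1 and 286 in the control-tagged and 261, 303, 345 and 298 in the TK-tagged LVs. *Psmd11* was at 89.3, 89.9, 76.5 and 91.8 in the control-tagged and 90.1, 94.4, 96.0 and 93.5 in the TK-tagged LVs. Control-tagged replicate 3 was thus the highest LV for *Psmc3* and *Psmd2* and the lowest for *Psmc6* and *Psmd11*. *Psmd8*, a lid subunit, was the steadiest member, at 115, 112, 119 and 115 in the control-tagged and 110.4, 113, 117 and 119.6 in the TK-tagged LVs, the highest 1.08 times the lowest. Next were the chaperone *Psmd5*, at 21.03 to 23.8 and 21.9 to 24.2, and *Psme3*. *Psmd9* was at 19.9, 21.4, 27.3 and 21.6 in the control-tagged and 19.8, 23.1, 19.99 and 21.6 in the TK-tagged LVs (log2 fold change −0.10, SE 0.12).

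In the core, 6 of 8 alpha and all 4 structural beta subunits had log2 fold changes above 0, none with an unadjusted p under 0.05. The highest alpha subunit per kilobase, *Psma7*, was at 132, 115, 159 and 134 in the control-tagged and 123, 137, 157 and 129 in the TK-tagged LVs. *Psmb3*, the highest structural beta subunit per kilobase, was at 121, 93.5, 160.3 and 101 and at 107, 121, 137 and 115. *Psmb1*, the lowest per kilobase, was at 128, 112, 144 and 119 and at 119.5, 131, 140.4 and 131. Among 44 of the 47 members the highest LV was less than 2 times the lowest, and the exceptions were *Psma8* (4.96), *Psmg4* (2.67) and *Psmb9* (2.14). The median range over the LVs was 0.462 on the log2 scale for the members and 0.652 for all genes.

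The constitutive subunits shared a pattern over the hearts within the groups. Of the 47 members, 23 were highest in control-tagged replicate 3 and 22 lowest in control-tagged replicate 2, while 12 were highest in TK-tagged replicate 3. Of all genes, 22.1% were highest, 18.8% lowest and 10.6% highest in the same libraries. In deviations from group means, which leave out any difference between the tags, the median r over the 91 pairs of constitutive core subunits was 0.733. It was 0.605 over the 136 pairs of 19S subunits and 0.665 over the 238 pairs of one of each. Leaving out control-tagged replicate 3, a choice made after seeing the data here and in the next paragraph, these 3 medians were 0.789, 0.574 and 0.708. Between immune and core subunits the median r was −0.0256 over 42 pairs (−0.114 without that LV). Over the 3 pairs of immune subunits it was 0.624 (0.816 without that LV). Both depended on TK-tagged replicate 1, without which, also chosen after seeing the data, they were 0.405 and 0.325. The median over core pairs was then 0.767. The immune subunits were thus no closer to each other than to the core without that LV. With the mean of the other constitutive core and 19S subunits, r was then 0.70 (*Psmb8*), 0.37 (*Psmb9*) and 0.20 (*Psmb10*). For *Psmb5*, *Psmb6* and *Psmb7* it was 0.64, 0.97 and 0.95. Between the 4 caps and the core the median r was −0.0055 over 56 pairs, but 0.464 without control-tagged replicate 3. The caps differed among themselves. With the mean of the constitutive core and 19S subunits, r was 0.83 (*Psme1*), 0.08 (*Psme4*), −0.32 (*Psme2*) and −0.54 (*Psme3*). Without control-tagged replicate 3 these were 0.79, 0.39, 0.60 and 0.34. Over all 1035 pairs of 46 members the median r was 0.381, and no such value was computed for genes outside the members. The points of each pair are the same 8 libraries and share their depth and scaling, so these values describe the libraries.

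**Figure D4:**
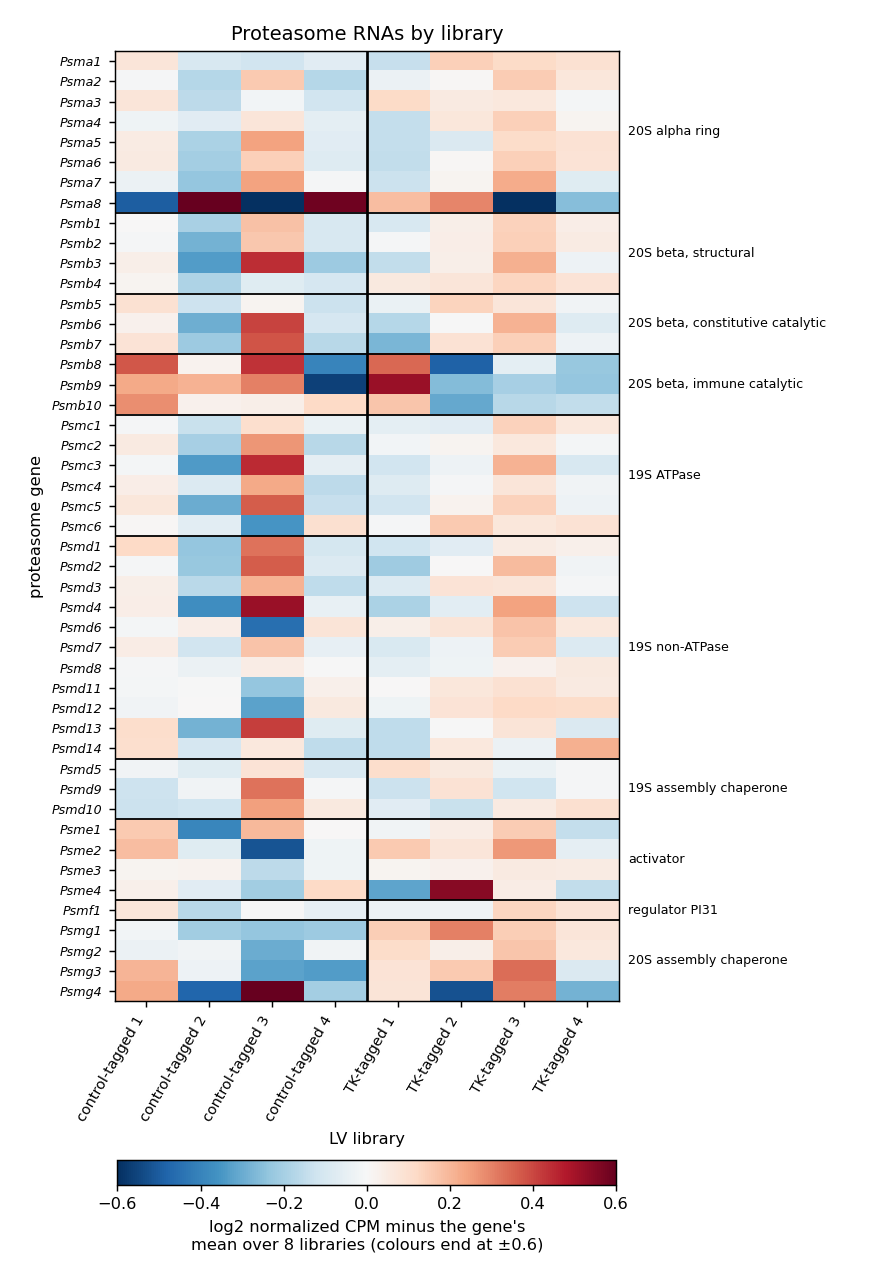
Log2 normalized CPM of each member minus its own mean over the 8 LVs (colour, ending at ±0.6), with genes in rows by role and LVs in columns, control-tagged left of the line. Control-tagged replicate 3 is above the mean for 32 members and low for a smaller set with *Psmd6*, *Psmc6*, *Psmd11*, *Psmd12* and *Psme2*. The immune subunits follow another order, which rests in large part on TK-tagged replicate 1.

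Within the 19S particle some subunits ran against the rest when control-tagged replicate 3 was included. The r of each with the mean of the other constitutive core and 19S subunits was −0.60 for *Psmd6*, −0.50 for *Psmd11*, −0.49 for *Psmd12* and −0.47 for *Psmc6*, against 0.96 for *Psmc5* and *Psmd2*. Without control-tagged replicate 3, r was 0.32, 0.57, 0.47 and 0.44 for the former, and 0.97 and 0.96 for the latter, so the opposite sign rests on that LV. In control-tagged replicate 3, *Psmd6*, a lid subunit, was at 50.8 and in the other LVs at 69.1 to 78.5, whereas *Psmd4*, a ubiquitin receptor, was at 233 there and at 126 to 192 elsewhere. The deviations in control-tagged replicate 3 were related to the GC content of the transcripts. Across 46 members r was 0.365, and across the 12706 tested genes with a known GC content it was 0.366. Of the 23 members above the median GC content of 50.4%, 19 were above their own mean in that LV, with a median log2 deviation of 0.240. Of the 23 others it was 13, with a median of 0.0705. Among the other LVs, r with GC content over the members ran from −0.58 in TK-tagged replicate 4 to 0.42 in control-tagged replicate 1, where it was −0.21 and 0.083 for all genes. Genes are not independent replicates, and the part of GC content or depth in the shared pattern was not tested.

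**Figure D5:**
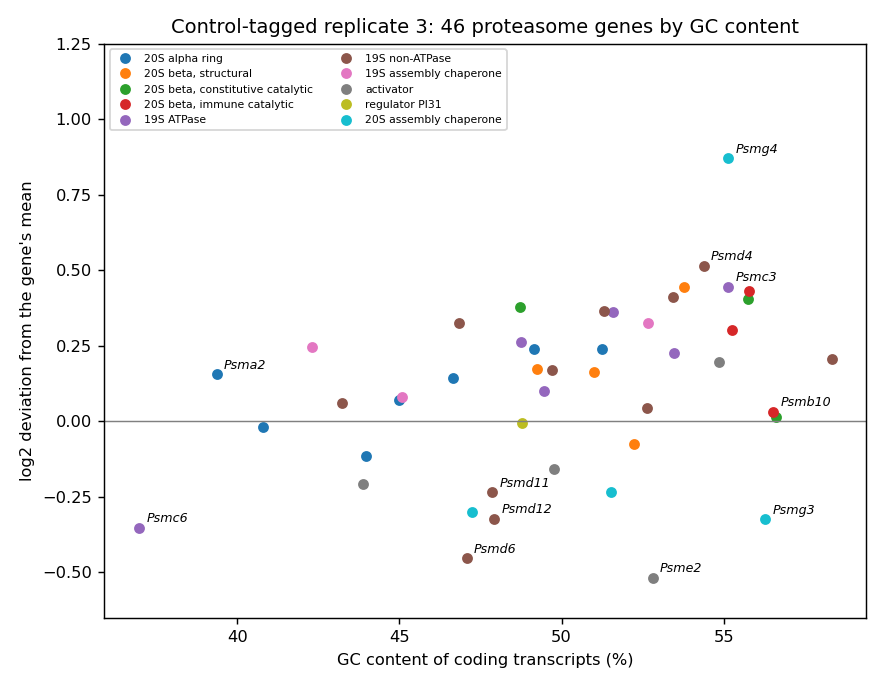
GC content of the coding transcripts (horizontal axis, percent) against the log2 deviation in control-tagged replicate 3 from the gene's mean over 8 LVs (vertical axis), 1 point per member without *Psma8*. Most points above 50.4% GC lie above 0 (19 of 23), and *Psmd6*, *Psmc6* and *Psme2* lie far below it.

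The other genes of the pathway gave no call. Of 31 listed partners 30 were tested, and 0 of them had an unadjusted p under 0.05, where 8.96% of all genes did. In the TK-tagged LVs 23 were higher and 7 lower, with a median log2 fold change of 0.066. *Nfe2l1* was at 672, 576, 568 and 607 in the control-tagged and 674, 674, 637 and 652 in the TK-tagged LVs (log2 fold change 0.12, SE 0.10, FDR = 0.746). *Pomp*, which matures the core, had a log2 fold change of 0.03 (SE 0.09) and *Adrm1*, a ubiquitin receptor of the 19S particle whose symbol falls outside the name rule, one of 0.10 (SE 0.10). No difference in the RNA of the proteasome between the genotypes was detectable with 4 LVs in each group, at a typical SE of a member's log2 fold change of 0.109.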

How the data were processed

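RNA of 8 LVs was sequenced as paired reads, 1 library per mouse. Per the labels and the study's methods, the authors trimmed reads with Trim Galore 0.4.4, aligned them to GRCm38 with STAR 2.5.4b and counted them per gene with featureCounts, and the deposited values are whole-number counts without normalization. The labels describe depletion of ribosomal RNA and the methods poly-A selection, which can change levels between genes. Whether strand and reads with several alignments were used is not given in the sources used here.

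The filter on low counts kept genes whose CPM reached 1 in 2 or more libraries, where 1 CPM is 11.4 to 16.2 reads. Normalized CPM is the count over the TMM-scaled total, and its log2 used a prior count of 2. Groups were compared with the quasi-likelihood test of edgeR 4.0.16 in R 4.3.3, with Benjamini-Hochberg adjustment over all genes (FDR). The likelihood ratio test, DESeq2 1.42.0, RLE factors, library totals, other filters, the replicate number as a block and each library left out were alternatives. Single genes were compared between groups with exact 2-sided permutation tests in R, and relations between genes were tested by exact permutation in Python 3.11.15. The fits were tested on simulated counts. Lengths, GC content and shared exons came from GENCODE's annotation of GRCm38. No 2 libraries of a group agreed within sampling noise (chi-square per degree of freedom 6.77 to 49.9), so each counted as 1 replicate.

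Named members were the catalytic beta subunits, activators and *Psmf1*, members with an unadjusted p under 0.05, the 3 highest and 3 lowest log2 fold changes, the 3 widest and 3 narrowest ranges and the extremes per kilobase of each role. *Psmb4*, *Psmd4*, *Psmd6*, *Psmd12*, *Psmc5* and *H2-K1* are extra, picked with their values in view. The members and lists were chosen with earlier results of these data known. Counting intervals and floors cover counting error only.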

Additional observations from a re-analysis of the deposited data

Results flagged for a closer look

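In 7 of 104 groups of 4 LVs or shares, the highest or lowest library lay farther from the others than Dixon's limit for 4 values, and chance gives about 1 in 20. *Psmd11* was at 76.5 normalized CPM in control-tagged replicate 3, against 89.3 to 91.8 in the other control-tagged LVs, and *Psmg2* was at 19.8 in the same library against 23.9 to 24.1. *Psmb10* as a percent of *Psmb10* and *Psmb7* was 20.9 there against 27.8 to 29.1. *Psmg1* was at 16.8 in control-tagged replicate 1 against 14.5 to 14.7. *Psmb9* was at 7.92 in control-tagged replicate 4 against 13.6 to 14.5, and at 16.9 in TK-tagged replicate 1 against 9.77 to 10.2. As a percent of *Psmb9* and *Psmb6*, *Psmb9* was 6.68 in TK-tagged replicate 1 against 3.21 to 3.80.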

How the results depend on the processing

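The count of 0 members called was the same under every alternative, with the fold threshold dropped and without each library in turn. The count of members with an unadjusted p under 0.05 was 2 by DESeq2 (*Psmb4* and *Psmg1*) and 2 with the replicate number as a block (*Psmb10* and *Psmg1*), and 1 to 2 without one library: 2 without control-tagged replicate 1 (*Psme2* and *Psmg1*) or TK-tagged replicate 1 (*Psmb10* and *Psmg1*). *Psmg1* was among them each time, and its log2 fold change ran from 0.29 to 0.39 over 15 alternatives, with FDRs of 0.278 and above. The block was an alternative because the labels do not state that equal numbers pair mice. Over all genes, same-numbered libraries deviated together for replicate 3 (r = 0.343) and not for the others (−0.029, 0.029 and −0.055). Over the members r was 0.076, 0.42, 0.64 and 0.16 for replicates 1 to 4. These values do not settle whether the mice were paired. Without one library the median log2 fold change of the members ran from −0.0149 to 0.0788.

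The immune share of the catalytic subunits was 21.6% (control-tagged) and 19.5% (TK-tagged) without the scaling by length, and 19.01% (control-tagged) and 16.8% (TK-tagged) with all exons as length, a choice made after seeing the data. These lengths change the weights of the genes by construction. Without one library the share ran from 15.3% to 16.5% and from 12.5% to 14.9%.

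Of 26 named members 15 kept the direction of their log2 fold change in every alternative, *Psma8* in the 13 of 15 where it passed the filter (not without control-tagged replicate 2 or 4). The others were within 0.28 of 0 and changed it without one library, with ranges of −0.13 to 0.11 (*Psmb6*), −0.13 to 0.081 (*Psmb7*), −0.11 to 0.070 (*Psme1*), −0.11 to 0.21 (*Psme4*), −0.45 to 0.052 (*Psmg4*), −0.020 to 0.019 (*Psmd8*), −0.15 to 0.0072 (*Psmd9*), −0.15 to 0.13 (*Psmc3*), −0.11 to 0.096 (*Psmd2*), −0.063 to 0.10 (*Psma7*) and −0.091 to 0.18 (*Psmb3*). With library totals *Psme1* was at −0.0013, and *Psmd8* was at 0.0016 by DESeq2 and with RLE factors and at 0.00050 without the low-count filter.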
